A study of Mus musculus with 14 samples.

Results

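Mitosis is run by a set of genes, many of whose messages rise late in the cell cycle. In cultured mouse hepatoblasts 45 such genes were followed. They encode mitotic kinases, cyclins and Cdc25 phosphatases, regulators of anaphase, kinesin motors, and kinetochore and spindle proteins. Condensin and other chromosome proteins and a pair of transcription factors complete the set. The genes were found by gene symbol. Each was read from a single probe set, the one whose mean over the 14 arrays was highest. Of the 45 genes, 43 were measured among 12394 genes on the array. Ccnb1 and Espl1 were not analysed here.

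Hepatoblasts are progenitors of the fetal liver from which both hepatocytes and cholangiocytes form. Those used here had been taken from wild-type mouse embryos at embryonic day 14 and immortalised by growth from clonal density. The sources used here give neither the number of clones nor the mouse strain. All cultures were kept in a medium with 10% serum, 50 ng/mL EGF, 30 ng/mL IGF2 and 10 µg/mL insulin. Wild-type or mutant isocitrate dehydrogenase was carried in a doxycycline-inducible system, with 25 ng/mL doxycycline in the IDH1 experiments. The sources used here do not say whether the vector and IDH2 cultures received doxycycline, or from which species the introduced sequences came. Isocitrate dehydrogenase makes 2-oxoglutarate from isocitrate, and the R132C change in IDH1 and the R172K change in IDH2 make the enzyme produce 2-hydroxyglutarate.

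There were 7 groups of 2 separate cultures, 14 arrays in all. On plates coated with rat tail collagen, the maintenance condition, the cells carried IDH1 R132C, IDH2 R172K, either enzyme in its wild-type form, or empty vector. On uncoated 10 cm dishes, the condition used for hepatocyte differentiation, cells with empty vector or with IDH1 R132C were kept in the same medium for at most 5 days. The sources used here give no time on collagen and no exact day of harvest, so plate, time and plating density cannot be told apart. Cultures are numbered 1 and 2 as in their labels.

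Values are log2 of the deposited probe set intensity, so a difference of 1 log2 unit is a 2-fold change. All 43 genes had mean levels between log2 7.44 and 12.2, against lower quartiles of 4.92 to 5.00 over the genes of each array. Levels of different genes come from different probes and are not compared. The labelled cell type was checked on markers. The 11 measured hepatoblast markers, among them Krt8, Hnf4a and Afp, were all above the lower quartile on every array. Their summed intensity was 56900 to 64600. Dlk1 and Igf2 stood only a little above that quartile, at mean levels of log2 5.32 and 5.56, and are weak support for the label. Summed intensity was 293 to 338 for 11 fibroblast and stellate markers, 249 to 353 for 8 blood cell markers and 164 to 200 for 8 endothelial markers. The 8 mature hepatocyte markers summed to 206 to 250 on collagen, to 822 and 638 in the uncoated vector cultures and to 336 and 324 in the uncoated R132C cultures. Alb lay at or near the lower quartile on every array, between log2 4.29 and 5.21, and the rise of the sum came with Ttr, the gene of transthyretin. Single markers moved with the plate, which the hepatoblast sum, carried by the brightest genes such as Krt8, does not show. In vector cells Sox9 changed by 2.02, Epcam by 1.83, Krt19 by -0.28 and Afp by -1.39 log2 units, all called, and in R132C cells Sox9, Epcam and Afp changed by 1.98, 1.08 and -0.83. Of the 8 blood cell markers only Ptprc was called, at 1.73 in vector and 1.19 in R132C cells, and of the fibroblast markers only Col1a1, at -0.53 in vector cells. The part of these markers in the plate effect on the mitotic genes was not tested. Replicate arrays correlated at r = 0.994 to 0.998 over all genes. The first R172K culture had a lower array median, 134.9, than the 144.8 to 148.3 of the others.

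As background, many mitotic genes, though not all of this set, are transcribed late in the cycle through a shared promoter design. The MuvB core complex, joined by B-Myb (Mybl2) and then FOXM1 in dividing cells and by p130 and E2F4 as the DREAM complex in resting cells, contacts an element called the CHR, and NF-Y binds CCAAT boxes upstream of it. Entry into mitosis needs Cdk1 with cyclin B, unlocked by Cdc25 phosphatases. The spindle is then built by kinesins and Aurora and Polo-like kinases, and anaphase starts when Cdc20 turns on the anaphase-promoting complex. In the liver these genes are high in dividing progenitors and regenerating hepatocytes and low in resting hepatocytes.

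Promoter sequence is shown because the genes moved together across the plates, as described further on. RefSeq (GRCm38.p6) windows of 300 bases, 250 before and 50 after the start, were found for 36 of the 43 genes. Aurkb, Ccna2, Cdc25c, Kif20a, Tpx2, Smc4 and Foxm1 had no entry. The 200 bases before the start are printed for 4 genes, with CCAAT boxes (CCAAT, or ATTGG on the other strand) and the CHR (TTTGAA, or TTCAAA on the other strand) in capitals. Bub1 (chr2:127831860-127832059, minus strand) had the largest fall on uncoated plates. Ccnb2 (chr9:70421555-70421754, minus strand), Kif11 (chr19:37376182-37376381, plus strand) and Smc2 (chr4:52439021-52439220, plus strand) were chosen after the motif search. Both motifs stood in the 200 bases before the start in 10 genes. The choice was limited to the 5 of these whose start lay at the outer edge of the RefSeq gene, as it did for Bub1. Among those 5, Ccnb2, Kif11 and Smc2 had the largest falls. Mki67, Ect2 and Top2a also held both motifs and fell more, but were left out by that limit.
Bub1: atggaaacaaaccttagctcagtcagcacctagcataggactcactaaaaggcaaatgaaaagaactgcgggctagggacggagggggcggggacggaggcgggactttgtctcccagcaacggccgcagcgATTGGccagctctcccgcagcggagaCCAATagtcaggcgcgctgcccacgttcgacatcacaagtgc
Ccnb2: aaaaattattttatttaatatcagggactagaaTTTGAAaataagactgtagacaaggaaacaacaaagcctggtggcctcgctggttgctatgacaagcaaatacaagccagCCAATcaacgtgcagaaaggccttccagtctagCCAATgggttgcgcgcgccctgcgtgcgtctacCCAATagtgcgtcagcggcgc
Kif11: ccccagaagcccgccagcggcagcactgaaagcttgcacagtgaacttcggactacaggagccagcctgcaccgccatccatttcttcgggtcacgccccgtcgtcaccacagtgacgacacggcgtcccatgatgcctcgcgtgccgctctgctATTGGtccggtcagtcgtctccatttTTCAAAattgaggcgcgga
Smc2: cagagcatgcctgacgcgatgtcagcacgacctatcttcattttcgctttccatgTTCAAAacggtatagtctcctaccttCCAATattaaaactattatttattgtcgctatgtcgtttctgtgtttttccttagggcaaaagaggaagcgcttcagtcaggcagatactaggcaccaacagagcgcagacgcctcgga

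Bub1 showed 2 CCAAT boxes, on opposite strands, and no TTTGAA in its 300 bases. Ccnb2, the gene of cyclin B2, showed 3 CCAAT boxes in a row on one strand, starting at positions -87, -54 and -21 from the start, with a TTTGAA far upstream and another just behind the start. Kif11, the motor that pushes spindle poles apart, had 1 CCAAT box and a CHR between it and the start. Smc2, a condensin subunit, had a CHR upstream of its CCAAT box and another behind the start.

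Over the 36 windows, TTTGAA on either strand was present in 24 (66.7%), against 13% of 9888 windows of genes on the array. CCAAT was present in 25 (69.4%), against 38.1%. Both stood together in 21 (58.3%), against 5.16%, and 16 (44.4%) held at least 2 CCAAT boxes, against 14.0%. The 32 TTTGAA matches had a median position of -1 and 22 lay within 50 bases of the start. The 50 CCAAT matches lay upstream in 48 cases, with a median position of -56.5. The CHR variant TTTAAA was in 9 windows (25.0%, against 9.99%) and the GC box GGGCGG in 26 (72.2%, against 57.5%). An E2F motif was in 6 (16.7%, against 13%), counted as TTCCCGC on either strand, as TTGGCGC on either strand, or as the third form, TTCGCGC. The second of these can share bases with a CCAAT box read on the other strand. Genes with TTTGAA had a median change of -1.44 log2 units on uncoated plates in vector cells, and those without it a median change of -1.35. These are matches of letters in a window and were not tested as binding sites.

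The first question was how the mitotic genes of control cells differed between uncoated plates and collagen. In vector cells all 43 fell, with a median change of -1.43 log2 units, which left 37.1% of the collagen level. Bub1, a kinase of the spindle checkpoint, changed most, at -1.87 log2 units, and Pttg1, the gene of securin, least, at -0.51. The fall was at least 2-fold in 39 of the 43, the others being Pttg1, Kif22, Smc4 and Foxm1. In every one of the 43 both uncoated cultures lay below both collagen cultures.

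A change was called at a Benjamini-Hochberg adjusted p under 0.05 over all 12394 genes in limma, fitted to the 7 group means of all 14 arrays. At that threshold 14.2% of all genes were lower on uncoated plates in vector cells, and 2.79% were lower by at least 2-fold. Both uncoated cultures lay below both collagen cultures in 34.4% of all genes. The median change over all 12394 genes was -0.02. Of the 43 genes, 40 were among the 500 largest falls on the array. In RNA of whole cultures, fewer dividing cells and less of these messages per dividing cell cannot be told apart.

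In R132C cells the same change of plate lowered 42 of the 43 genes, with a median change of -1.005 log2 units that left 49.8% of the collagen level. At the same threshold 12.3% of all genes were lower. The fall reached 2-fold in 22 of the 43, against 1.65% of all genes. Mybl2, the B-Myb factor, fell by 1.68 log2 units, the most of the 43. Pttg1 changed by -0.22 (SE 0.10, adjusted p = 0.138) and was not called. Both uncoated cultures lay below both collagen cultures in all 43, and in 35.2% of all genes.

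Across the 7 groups, the uncoated vector group had the lowest mean in all 43 genes, and the uncoated R132C group came next in all 43. These ranks were not counted over all genes. In 42 genes all 4 uncoated cultures lay below all 10 collagen cultures, as they did in 13.6% of all genes. Cenpe was the exception. Relative to the mean of the vector cultures on collagen, the median of the 43 genes was -1.54 and -1.27 in the uncoated vector cultures and -0.50 and -1.02 in the uncoated R132C cultures. The 10 collagen cultures lay between -0.15 and 0.25. The median over all genes was between -0.09 and 0.01 in every culture.

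**Figure D1:**
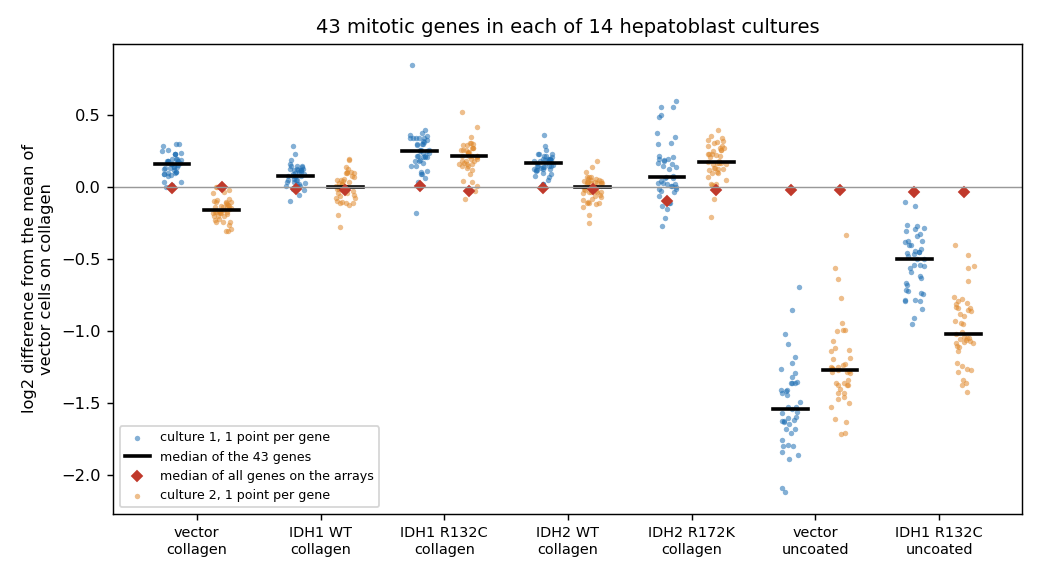
Log2 difference of each of the 43 mitotic genes from the mean of the vector cultures on collagen, by group and culture, with 1 point a gene, bars at the median of the 43 and diamonds at the median of all genes. The medians of the uncoated vector cultures lie lowest, at -1.54 and -1.27, those of the uncoated R132C cultures at -0.50 and -1.02, and those of the 10 collagen cultures between -0.15 and 0.25.

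The kinases drive entry into mitosis and check the attachment of chromosomes. All 9 fell in vector cells, with a median change of -1.52 log2 units and a range of -1.87 to -1.12, and all 9 fell in R132C cells, with a median change of -1.12. Bub1 stood at log2 11.56 and 11.31 in the vector cultures on collagen and at 9.31 and 9.82 on uncoated plates. In R132C cells Bub1 stood at 11.65 and 11.69 on collagen and at 10.52 and 10.07 on uncoated plates. The uncoated cultures of Bub1 were well below the collagen cultures in both cell types, and the uncoated vector cultures lay below the uncoated R132C cultures. Its fitted change was -1.87 (SE 0.17, adjusted p = 9e-06) in vector cells and -1.38 (SE 0.17, adjusted p = 0.000144) in R132C cells.

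Aurkb, the Aurora kinase of the chromosomal passenger complex, was at 10.38 and 10.13 in vector cells on collagen and at 8.40 and 8.55 on uncoated plates. The R132C cultures had 10.60 and 10.43 on collagen and 9.41 and 8.84 on uncoated plates for Aurkb. No uncoated culture reached the collagen range, and the first R132C culture was the highest of the uncoated ones. The change was -1.78 (SE 0.16, adjusted p = 8.76e-06) in vector and -1.39 (SE 0.16, adjusted p = 9.41e-05) in R132C cells.

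Cdk1, the kinase that triggers mitosis, had the smallest fall of the kinases. It was at 11.71 and 11.43 in vector cells on collagen and at 10.39 and 10.50 on uncoated plates. In R132C cells it was at 11.82 and 11.84 on collagen and at 11.28 and 10.78 on uncoated plates. The first uncoated R132C culture of Cdk1 came close to the lowest collagen culture without overlapping it. The changes of -1.12 (SE 0.14, adjusted p = 8.78e-05) and -0.80 (SE 0.14, adjusted p = 0.00136) were both called. The other kinases fell by values between those of Bub1 and Cdk1 in vector cells: Plk4, which starts centriole duplication, changed by -1.68, Aurka, of the spindle poles, by -1.58, Ttk, the checkpoint kinase MPS1, by -1.52, Bub1b, the checkpoint protein BubR1, by -1.45, Plk1 by -1.41 and Nek2, which separates centrosomes, by -1.30.

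Cyclins activate Cdk1 and Cdc25 phosphatases remove its inhibitory phosphates. All 4 measured genes fell in both cell types, with median changes of -1.45 and -1.06. Ccna2, cyclin A2, was at 11.70 and 11.51 in vector cells on collagen and at 10.01 and 10.21 on uncoated plates. In R132C cells Ccna2 was at 11.95 and 11.88 on collagen and at 11.21 and 10.53 on uncoated plates. The uncoated cultures were below the collagen ones throughout, with the first R132C culture nearest to them. The changes were -1.50 (SE 0.17, adjusted p = 3.32e-05) and -1.05 (SE 0.17, adjusted p = 0.000635).

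Cdc25b was at 8.21 and 8.18 in vector cells on collagen and at 6.55 and 6.85 on uncoated plates. The R132C cultures had 8.31 and 8.17 on collagen and 7.24 and 6.92 on uncoated plates. Its uncoated vector and R132C cultures were nearly adjacent, and both were far below collagen. Cdc25c was at 8.27 and 8.10 in vector cells on collagen and at 6.83 and 6.81 on uncoated plates. For the same gene the R132C cultures had 8.29 and 8.43 on collagen and 7.46 and 7.12 on uncoated plates. In vector cells Cdc25b changed by -1.49 (SE 0.16, adjusted p = 2.26e-05) and Cdc25c by -1.37 (SE 0.13, adjusted p = 9.71e-06), and in R132C cells by -1.16 and -1.07. Ccnb2 changed by -1.41 (SE 0.15, adjusted p = 2.47e-05) and by -0.79 (SE 0.15, adjusted p = 0.00198).

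Anaphase control covered Mad2l1, the checkpoint protein that holds back Cdc20, Cdc20 itself and Pttg1, the securin that Cdc20 sends to destruction. Mad2l1 was at 12.02 and 11.68 in vector cells on collagen and at 10.31 and 10.60 on uncoated plates. In R132C cells Mad2l1 was at 12.19 and 12.16 on collagen and at 11.29 and 10.79 on uncoated plates. Within each cell type the gap between plates was wider than the gap between replicates. The changes were -1.40 (SE 0.16, adjusted p = 3.82e-05) and -1.13 (SE 0.16, adjusted p = 0.00028).

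Cdc20 stood at 12.37 and 12.09 in vector cells on collagen and at 11.01 and 11.24 on uncoated plates. The R132C cultures had 12.49 and 12.38 on collagen and 11.96 and 11.58 on uncoated plates. The uncoated R132C cultures of Cdc20 lay between the uncoated vector cultures and the collagen range. The changes were -1.11 (SE 0.13, adjusted p = 5.45e-05) and -0.67 (SE 0.13, adjusted p = 0.0025). Pttg1 was at 12.10 and 12.03 in vector cells on collagen and at 11.37 and 11.73 on uncoated plates, while R132C cells had 11.88 and 11.98 on collagen and 11.76 and 11.66 on uncoated plates. The uncoated vector and R132C cultures of Pttg1 overlapped. Its change was -0.51 (SE 0.10, adjusted p = 0.00213) in vector cells, the smallest of the 43.

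Mitotic kinesins move chromosomes and slide spindle microtubules. All 6 fell in both cell types, with median changes of -1.37 and -0.87 log2 units. Kif4, the chromosome-arm motor, was at 9.30 and 8.83 in vector cells on collagen and at 7.51 and 7.64 on uncoated plates. In R132C cells Kif4 was at 9.39 and 9.29 on collagen and at 8.45 and 7.84 on uncoated plates. The plates did not overlap for Kif4, although replicates lay apart in the vector collagen and the uncoated R132C groups. The changes were -1.49 (SE 0.19, adjusted p = 9.53e-05) and -1.19 (SE 0.19, adjusted p = 0.000732).

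Kif20a, a motor of the midzone needed for cytokinesis, was at 10.58 and 10.12 in vector cells on collagen and at 8.79 and 8.98 on uncoated plates. The R132C cultures had 10.56 and 10.61 on collagen and 9.87 and 9.40 on uncoated plates. The uncoated cultures of Kif20a were all below collagen, with vector lowest. Kif22, the motor that pushes chromosome arms to the spindle middle, was at 11.48 and 11.26 in vector cells on collagen and at 10.28 and 10.60 on uncoated plates. The R132C cultures of Kif22 had 11.46 and 11.46 on collagen and 11.11 and 10.90 on uncoated plates. In vector cells Kif20a changed by -1.47 (SE 0.17, adjusted p = 3.74e-05) and Kif22 by -0.93 (SE 0.13, adjusted p = 0.000161). Both were called in R132C cells too, at -0.96 and -0.46. The R132C calls of Kif22 and Kif11 were lost without either R132C culture on collagen or without the second uncoated one, with adjusted p of 0.0889 to 0.182 for Kif22 and 0.0638 to 0.163 for Kif11. Kif2c, which shortens microtubules at kinetochores, changed by -1.40 in vector cells, Kif11 by -1.34 and Kif23, of the centralspindlin complex, by -1.32.

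Centromere and kinetochore genes build the site where microtubules attach. All 6 fell in both cell types, with median changes of -1.44 and -0.98. Nuf2, a subunit of the NDC80 complex, was at 9.21 and 8.81 in vector cells on collagen and at 7.21 and 7.30 on uncoated plates. In R132C cells Nuf2 was at 9.25 and 9.30 on collagen and at 8.26 and 7.73 on uncoated plates. The uncoated vector cultures were the lowest and close together. The changes were -1.75 (SE 0.17, adjusted p = 1.16e-05) and -1.28 (SE 0.17, adjusted p = 0.000196).

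Cenpf, a large protein of the outer kinetochore, was at 10.64 and 10.30 in vector cells on collagen and at 8.71 and 9.22 on uncoated plates. For Cenpf the R132C cultures had 10.77 and 10.78 on collagen and 9.92 and 9.57 on uncoated plates. The plates did not overlap. Cenpe, a kinesin-like motor of the kinetochore, was at 10.19 and 9.67 in vector cells on collagen and at 8.61 and 8.99 on uncoated plates. For Cenpe the R132C cultures had 10.19 and 10.15 on collagen and 9.83 and 9.37 on uncoated plates, so that the first uncoated R132C culture was above the second vector culture on collagen. In vector cells Cenpf changed by -1.50 (SE 0.17, adjusted p = 3.17e-05) and Cenpe by -1.13 (SE 0.19, adjusted p = 0.000561). In R132C cells they changed by -1.02 and -0.57, the second with an adjusted p of 0.0393. The R132C call of Cenpe was lost without the first R132C culture on collagen (-0.55, adjusted p = 0.163), without the second (-0.59, adjusted p = 0.123) and without the second uncoated one (-0.34, adjusted p = 0.34). Spc25 and Ndc80, also of the NDC80 complex, changed by -1.46 and -1.17 in vector cells, and Cenpa, the centromeric histone, by -1.43.

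Genes of the spindle, midzone and cytokinesis bundle microtubules and close the cleavage furrow. All 7 fell in both cell types, with median changes of -1.51 and -1.07. Anln, the scaffold protein anillin, was at 12.20 and 11.75 in vector cells on collagen and at 9.88 and 10.34 on uncoated plates. In R132C cells Anln was at 12.30 and 12.19 on collagen and at 11.19 and 10.73 on uncoated plates. The uncoated R132C cultures lay clearly between the uncoated vector cultures and collagen. The changes were -1.86 (SE 0.18, adjusted p = 1.35e-05) and -1.28 (SE 0.18, adjusted p = 0.000297).

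Tpx2, which activates Aurora A on the spindle, was at 10.05 and 9.83 in vector cells on collagen and at 8.10 and 8.47 on uncoated plates. For Tpx2 the R132C cultures had 10.12 and 10.12 on collagen and 9.15 and 8.83 on uncoated plates. All uncoated cultures were below all collagen cultures. Nusap1, a microtubule bundling protein, was at 10.40 and 10.40 in vector cells on collagen and at 9.04 and 9.40 on uncoated plates. For Nusap1 the R132C cultures had 10.49 and 10.44 on collagen and 10.00 and 9.64 on uncoated plates. Tpx2 changed by -1.65 (SE 0.14, adjusted p = 6.16e-06) in vector and by -1.12 in R132C cells, and Nusap1 by -1.18 (SE 0.13, adjusted p = 2.59e-05) and -0.65. Ect2, which activates RhoA at the furrow, changed by -1.53 in vector cells, Birc5 (survivin) by -1.51, Racgap1 by -1.44 and Prc1, the midzone crosslinker, by -1.44.

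Chromosome structure genes condense and untangle DNA. All 6 fell in both cell types, with median changes of -1.30 and -0.92. Mki67, the Ki-67 protein that coats mitotic chromosomes and is used as a mark of dividing cells, was at 12.38 and 11.78 in vector cells on collagen and at 10.29 and 10.80 on uncoated plates. In R132C cells Mki67 was at 12.33 and 12.50 on collagen and at 11.54 and 11.27 on uncoated plates. The second vector culture on collagen was the lowest of the collagen cultures and still above every uncoated one. The changes were -1.54 (SE 0.18, adjusted p = 5.63e-05) and -1.01 (SE 0.18, adjusted p = 0.00151).

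Top2a, the topoisomerase that untangles sister chromatids, was at 12.49 and 12.14 in vector cells on collagen and at 10.64 and 11.03 on uncoated plates. For Top2a the R132C cultures had 12.68 and 12.56 on collagen and 11.82 and 11.48 on uncoated plates. Here too the uncoated R132C cultures stood between. Smc4, a core condensin subunit, was at 12.36 and 12.20 in vector cells on collagen and at 11.43 and 11.72 on uncoated plates. For Smc4 the R132C cultures had 12.50 and 12.55 on collagen and 12.15 and 11.73 on uncoated plates, the second of these next to the uncoated vector range. In vector cells Top2a changed by -1.48 (SE 0.15, adjusted p = 2.23e-05) and Smc4 by -0.71 (SE 0.12, adjusted p = 0.000844). In R132C cells the changes were -0.97 and -0.58, and the call of Smc4 was lost without the second uncoated R132C culture (-0.38, adjusted p = 0.0586). The other condensin genes, Ncapd2, Ncaph and Smc2, changed by -1.32, -1.27 and -1.21 in vector cells.

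The transcription factors Mybl2 and Foxm1 switch on many of the genes above. Mybl2 was at 8.04 and 7.43 in vector cells on collagen and at 6.47 and 6.45 on uncoated plates. In R132C cells Mybl2 was at 8.58 and 8.26 on collagen and at 7.004 and 6.47 on uncoated plates. The R132C cultures of Mybl2 were the highest of all on collagen, and on uncoated plates the second one was level with vector. The change was -1.27 (SE 0.24, adjusted p = 0.00147) in vector and -1.68 (SE 0.24, adjusted p = 0.00033) in R132C cells.

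Foxm1 was at 7.72 and 7.52 in vector cells on collagen and at 6.60 and 6.98 on uncoated plates. For Foxm1 the R132C cultures had 7.86 and 7.66 on collagen and 6.99 and 6.84 on uncoated plates. The uncoated cultures of both cell types overlapped for Foxm1. The changes were -0.83 (SE 0.19, adjusted p = 0.00585) and -0.84 (SE 0.19, adjusted p = 0.00645). The call in vector cells was lost without the first vector culture on collagen (-0.73, adjusted p = 0.0552) or on uncoated plates (-0.63, adjusted p = 0.0773). The call in R132C cells was lost without the first R132C culture on collagen (-0.75, adjusted p = 0.0637) or the second uncoated one (-0.77, adjusted p = 0.0591). A further, dimmer probe set of Foxm1 changed by 0.05 (SE 0.13, adjusted p = 0.836) in vector cells.

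**Figure D2:**
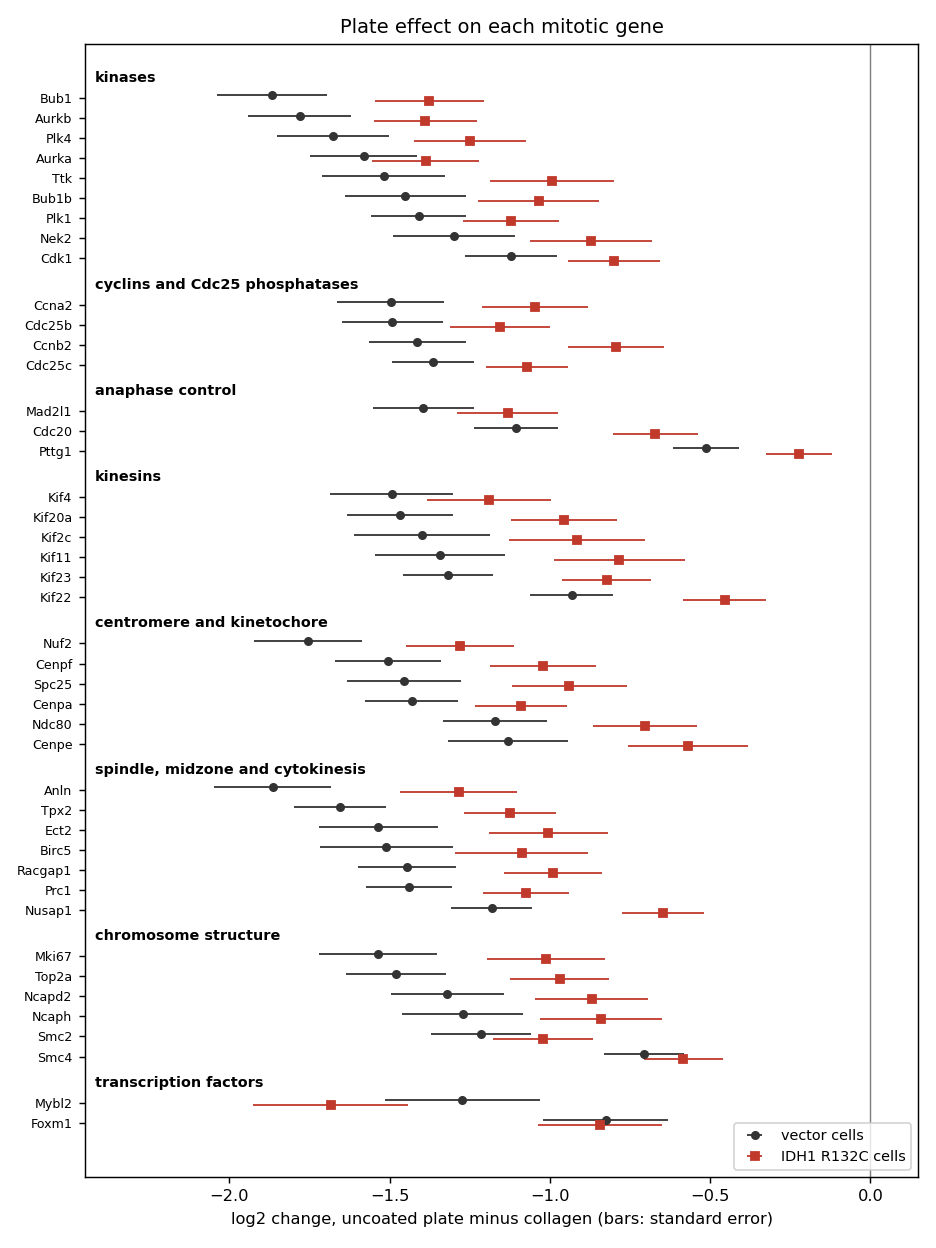
Change from collagen to uncoated plates for each of the 43 mitotic genes by role, in log2 units with bars of 1 standard error, in vector (circles) and R132C cells (squares). Every value is below 0, and the falls in R132C cells are the smaller ones for 41 genes, with Mybl2 and Foxm1 as the exceptions.

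The same genes were read by 32 further probe sets, spread over 21 of the 43 genes. Of these, 26 were lower in vector cells on uncoated plates and 24 in R132C cells, and none was higher at the threshold. The 6 not called in vector cells belonged to Foxm1, Kif23, Kif2c (2 of them), Spc25 and Top2a. That of Kif23 changed by -1.10 (SE 0.41, adjusted p = 0.0648) in vector cells, while that of Top2a changed by -0.02 at a mean level of log2 4.30, under the lower quartile of the arrays.

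The next question was whether R132C altered the effect of the plate. The fall was smaller in R132C than in vector cells for 41 of the 43 genes, with a median difference of 0.45 log2 units, and the median ratio of the falls was 0.685. Replicates were also apart over the 43. The median of culture 1 minus culture 2 was 0.46 in uncoated R132C and -0.30 in uncoated vector cells. On collagen it was 0.03 in R132C and 0.31 in vector cells. The genes share these arrays, so the 41 are not independent results. No single gene passed the threshold in limma: the smallest adjusted p was 0.528, for Nusap1. Differences above 0 made up 49.1% of all genes. At an unadjusted p under 0.05, 9 of the 43 were higher, against 2.5% of all genes. At the adjusted threshold 0.25% of all genes were called, all of them lower.

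Ccnb2 had the largest difference, 0.62 (95% interval 0.16 to 1.08, adjusted p = 0.556), followed by Anln at 0.58 (0.02 to 1.14). Tpx2 differed by 0.53 (0.09 to 0.97) and Nusap1 by 0.53 (0.15 to 0.92). Mybl2 went the other way, at -0.41 (-1.15 to 0.33), and Foxm1 was at -0.02 (-0.61 to 0.58). The intervals of the last 2 held 0, and they do not show that both cell types responded alike. Without the second uncoated vector culture Ccnb2 was called. Over the 43 genes the falls of both cell types correlated at r = 0.781 (rho = 0.761), and over all genes at r = 0.877. This is a description across genes, which share arrays and are not independent.

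On uncoated plates the 43 genes were all higher in R132C than in vector cells, with a median difference of 0.64 log2 units. The call was reached by 19 of them and none was lower, against 0.896% of all genes higher and 1.49% lower. By role, the genes called were Bub1 of the 9 kinases, Ccna2 and Ccnb2 of the 4 cyclins and phosphatases, Cdc20 of the 3 anaphase genes, and Kif20a, Kif22 and Kif23 of the 6 kinesins. Cenpe, Cenpf, Nuf2 and Spc25 were called of the 6 kinetochore genes, Anln, Ect2, Nusap1, Racgap1 and Tpx2 of the 7 spindle and cytokinesis genes, and Mki67, Ncapd2 and Top2a of the 6 chromosome genes. Neither transcription factor was. The vector cultures are those of the plate comparison, so the results are not separate evidence.

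Mki67 had the largest difference, 0.86 (SE 0.18, adjusted p = 0.0309), and Anln one of 0.85 (SE 0.18, adjusted p = 0.0309). Top2a differed by 0.82 (SE 0.15, adjusted p = 0.0175), the smallest adjusted p of the 43. At the low end stood Foxm1 at 0.12 (95% interval -0.30 to 0.54), Pttg1 at 0.16 (-0.06 to 0.39) and Mybl2 at 0.28 (-0.25 to 0.80). In 40 of the 43 both R132C cultures lay above both vector cultures, against 21.3% of all genes. The other 3 were Foxm1, Pttg1 and Mybl2. At an unadjusted p under 0.05, 40 were higher, against 5.91% of all genes.

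The count of calls rested on single cultures. The first uncoated R132C culture was above the second in all 43 genes, by a median of 0.46 log2 units, where the median absolute gap over all genes was 0.11. The first uncoated vector culture was below the second in 40 of the 43, with a median gap of -0.30. No gene was called without the first R132C culture (median difference 0.42, 26 at an unadjusted p under 0.05) or without the first vector culture (0.52 and 30). Without the second R132C culture 37 were called (0.87). With only the 4 uncoated arrays in the limma fit none was called and 39 had an unadjusted p under 0.05. The summed mature hepatocyte markers, 822 and 638 against 336 and 324, and Ttr, with a difference of -1.73 log2 units (SE 0.15, adjusted p = 2.62e-05), moved with this comparison. So did the hepatoblast markers Afp, at 1.45 (SE 0.21, adjusted p = 0.00311), and Epcam, at -1.49 (SE 0.21, adjusted p = 0.00218). The part of these markers in the result was not tested.

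**Figure D3:**
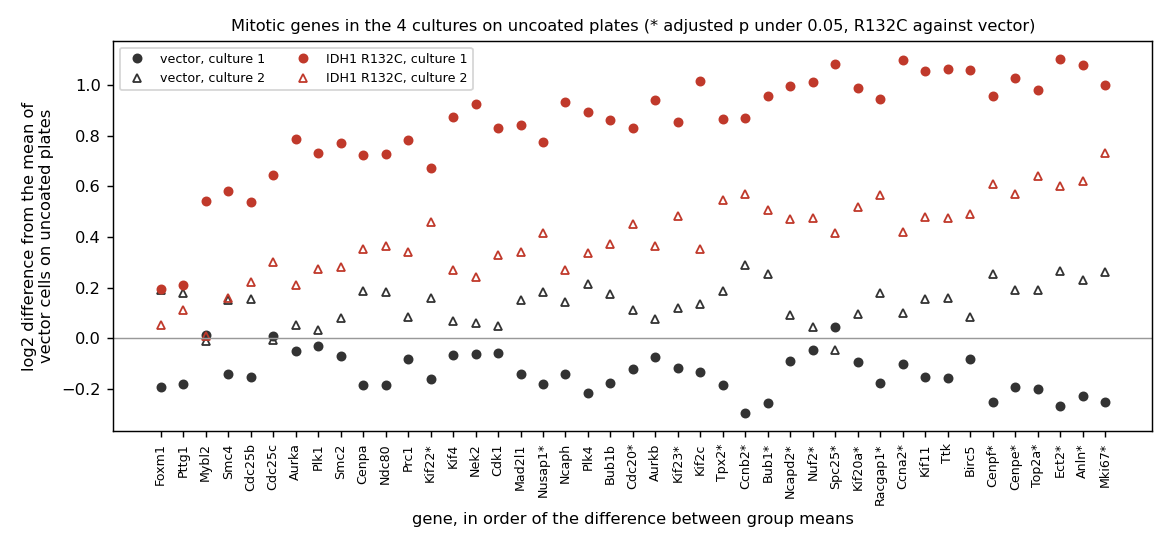
Log2 difference of each of the 43 mitotic genes from the mean of the uncoated vector cultures, with 1 symbol for each of the 4 uncoated cultures and stars on the 19 genes called. Both R132C cultures lie above both vector cultures in 40 genes, and the first R132C culture is the higher in all 43.

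On collagen, the maintenance condition, the question was whether mutant or wild-type enzyme shifted the mitotic genes. No gene of the 43 was called in any of the 6 comparisons made there. R132C cells had the highest group mean in 31 of the 43 genes, R172K cells in 9, wild-type IDH2 in 2 and wild-type IDH1 in 1. These ranks were not counted over all genes, and the 43 genes share arrays and are not independent. Against vector, the median difference was 0.24 log2 units in R132C, 0.14 in R172K, 0.04 in wild-type IDH1 and 0.08 in wild-type IDH2 cells. These 4 share the vector cultures.

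R132C against vector was above 0 in 42 of the 43, Pttg1 being the exception at -0.13, and the cultures did not overlap, R132C above, in 27, against 17.7% of all genes. In limma 0% of all genes were called in that comparison, and 1 of the 43, Mybl2, was higher at an unadjusted p under 0.05, against 2.78% of all genes. The vector cultures on collagen were themselves apart, the first being higher in 41 of the 43 by a median of 0.31, and the median difference was 0.39 without the first and 0.07 without the second. Against wild-type IDH1, the difference in R132C cells was above 0 in 40 of the 43, with a median of 0.19. Both R132C cultures lay above both wild-type IDH1 cultures in 35, against 22.1% of all genes, while 0.0484% of all genes were called. Again 1 of the 43, Mybl2, was higher at an unadjusted p under 0.05, against 3.49% of all genes.

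Mybl2 showed the largest difference on collagen. Its R132C cultures were at 8.58 and 8.26, vector at 8.04 and 7.43, wild-type IDH1 at 7.93 and 7.61, wild-type IDH2 at 8.10 and 7.49 and R172K at 7.70 and 7.87. Both R132C cultures were above all the others. The difference was 0.69 (95% interval 0.16 to 1.21, adjusted p = 0.518) from vector and 0.65 (0.13 to 1.17, adjusted p = 0.516) from wild-type IDH1.

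R172K against wild-type IDH2 had a median difference of 0.05 over the 43, with 31 above 0, where the median of all genes was -0.05 and 1.73% of all genes were called. Against vector 38 of the 43 were above 0, and 4.27% of all genes were called. At an unadjusted p under 0.05 in limma, 2 and 4 of the 43 were higher, against 5.78% and 6.86% of all genes. Top2a was the largest in both. Its R172K cultures were at 12.88 and 12.66, wild-type IDH2 at 12.51 and 12.29 and vector at 12.49 and 12.14, without overlap. The differences were 0.37 (95% interval 0.03 to 0.70, adjusted p = 0.249) and 0.46 (0.12 to 0.79, adjusted p = 0.12). For wild-type IDH1 and wild-type IDH2 against vector, 0% of all genes were called and none of the 43 reached an unadjusted p under 0.05.

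Genes around the mitotic set were described from lists of the same pathways. For comparison, 14.2% of all genes were lower and 15.1% higher on uncoated plates in vector cells, and 12.3% lower and 13.6% higher in R132C cells. Of 42 other mitotic genes measured, 38 fell and 1 rose in vector cells, with a median change of -1.23, and 32 fell and 1 rose in R132C cells. Haspin, a histone kinase of the centromere, changed by -1.99 (SE 0.20, adjusted p = 1.47e-05) and Ska1, of the SKA complex, by -1.78 in vector cells. Zwint, a kinetochore scaffold, was the one that rose, by 0.44 (SE 0.10, adjusted p = 0.00547) in vector and 0.57 in R132C cells. Zwint was read from the brightest of its 6 probe sets, and the others were not examined. Of 24 replication and S phase genes, 23 fell in vector and 20 in R132C cells, and none rose. The largest of these changes were in Gins1, of the replicative helicase, at -1.64, Tk1, thymidine kinase, at -1.54, and Cdc6, a licensing factor, at -1.51.

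Lists of machinery outside the spindle had medians nearer to 0. Of 15 genes of the anaphase-promoting complex and its partners, 5 fell and 2 rose in each cell type, with a median change of -0.11 in vector cells. Those that rose were Anapc13 and Anapc16 in vector cells and Anapc13 and Anapc2 in R132C cells. Anapc1, its largest subunit, fell by 0.89 (SE 0.09, adjusted p = 1.68e-05) and Anapc13 rose by 0.34 in vector cells. Of 9 cohesin genes 3 fell in vector cells, with Pds5a at -0.58, and 4 in R132C cells. Of 17 kinesins of cargo transport measured, 3 rose and 1 fell in vector cells and 5 rose and 1 fell in R132C cells, against 15.1% and 14.2% of all genes in vector cells and 13.6% and 12.3% in R132C cells. Klc4, a kinesin light chain, rose by 1.18 (SE 0.15, adjusted p = 0.000102), Kif1b by 0.76 and Kif3b by 0.69, and Klc1 fell by 0.96. The difference between these lists and the mitotic set was not tested.

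Upstream of mitosis, 8 of 14 G1 cyclins, CDKs and E2F factors fell in both cell types and none rose. E2f8, a repressor E2F, changed by -1.58 in vector cells, Ccne2, cyclin E2, by -1.55 and Ccnd2, cyclin D2, by -1.04 (SE 0.09, adjusted p = 5.54e-06). Ccnd1 and Ccnd2 were higher in R132C than in vector cells on uncoated plates, by 0.49 (SE 0.08, adjusted p = 0.00827) and 0.71 (SE 0.09, adjusted p = 0.00103). Of 9 genes of the DREAM and MuvB complexes, 2 rose and 3 fell in vector cells. Rbl2, the p130 protein of resting cells, rose by 0.90 (SE 0.10, adjusted p = 4.26e-05) and Lin37 by 0.58, while Rbl1, p107, changed by -1.29, Lin9 by -0.74 and Tfdp1 by -0.55. In R132C cells Rbl2 rose by 0.71 and Rbl1 changed by -0.79. Of 15 brakes on the cycle, 1 rose and 3 fell in vector cells and 4 rose and 2 fell in R132C cells. Over all genes 15.1% rose and 14.2% fell in vector cells and 13.6% rose and 12.3% fell in R132C cells, and no difference of the brakes from all genes was tested. Btg1 was the one that rose in vector cells, by 0.42, and Cdkn1a, p21, changed by -0.41 (SE 0.25, adjusted p = 0.274) in vector cells.

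**Figure D4:**
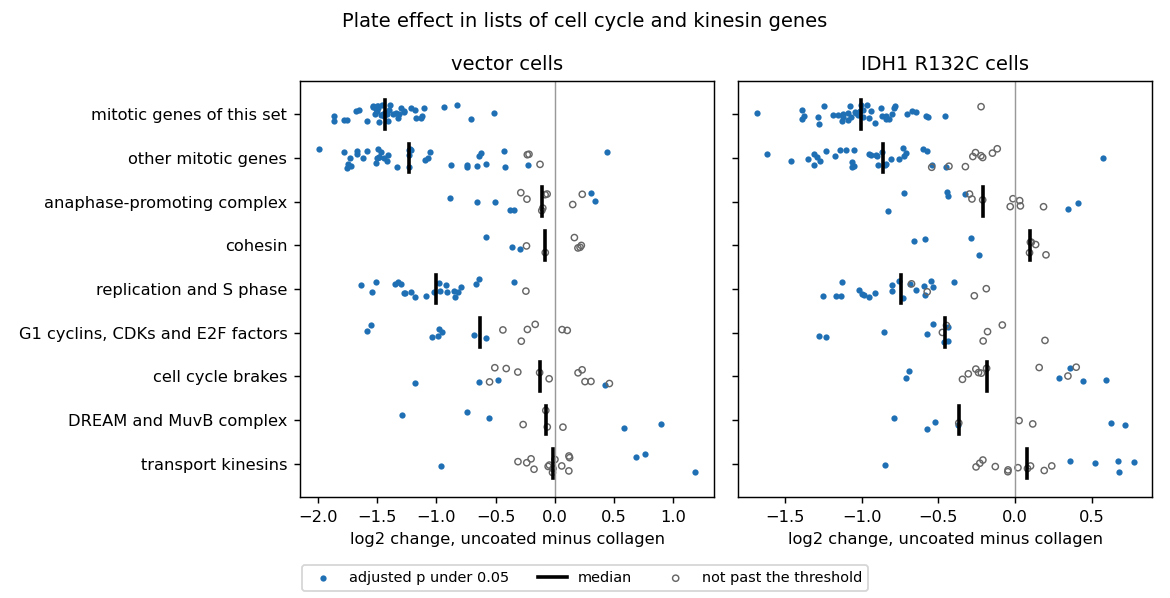
Change from collagen to uncoated plates, in log2 units, for the 43 mitotic genes and 8 lists of related genes, in vector cells (left) and R132C cells (right). Filled points passed an adjusted p of 0.05, and bars mark medians, which lie at -1.43 and -1.005 for the 43 genes and near 0 for cohesin and transport kinesins.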

How the data were processed

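Total RNA of 14 cultures was hybridised to Affymetrix Mouse 430A 2.0 arrays. Per the submitters' processing notes, RMA had been used to make the deposited intensity of each probe set, and no version is named. The deposited intensity ran from 5.84 to 26770, so it was on a linear scale, and log2 was taken. RMA usually equalises the arrays' distributions, so a shift of all genes at once would not be seen. Of 22690 probe sets, 20393 carried 1 gene symbol.

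The fit used limma 3.58.1 (lmFit, then eBayes with an intensity trend) under R 4.3.3, with a mean for each group, 7 residual and 5.67 prior degrees of freedom. The 95% intervals come from that fit. Adjusted p are over all 12394 genes. With 2 cultures a group, precision is limited by the number of arrays. On simulated data with 200 changed genes among 12394, 89.6% of changes of 1 log2 unit and 50.7% of those of 0.5 were found for the plate effect in vector cells. For the difference of plate effects 62.7% and 13.4% were found. In the data 14.2% of all genes were called lower and 15.1% higher on uncoated plates in vector cells. The simulation held far fewer changed genes, so its shares do not give the sensitivity of the real plate comparison.

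The genes, lists and tests were chosen with earlier results of these data known. Culture values are given for the members with the largest and smallest plate effect in vector cells in each role. Motifs were searched on both strands of RefSeq promoters. Alternatives were other normalizations, probe set choices, variance models, filters on dim genes, a replicate block and each culture left out. Detection calls were not used, and summarised values leave no way to repeat the background correction.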

Additional observations from a re-analysis of the deposited data

Results flagged for a closer look

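Among the values given beside the mitotic genes, 1 differed between the cell types by a test of the difference itself. Ttr, the gene of transthyretin and a marker of hepatocytes, rose by 3.06 log2 units (SE 0.15, adjusted p = 4.92e-08 in limma) on uncoated plates in vector cells and by 1.15 (SE 0.15, adjusted p = 0.000163) in R132C cells. The difference was -1.91 (SE 0.21, adjusted p = 0.000807). Groups of 2 cultures were not tested for outlying cultures.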

How the results depend on the processing

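On uncoated plates against collagen 42 to 43 mitotic genes were called in vector cells under the settings tried. In R132C cells 42 to 43 were called with other methods and 33 to 42 with a culture left out. There 9 calls were lost without the second uncoated R132C culture (Nek2, Kif11, Kif22, Kif2c, Cenpe, Ndc80, Smc4, Ncaph, Foxm1), 5 without the first R132C culture on collagen (Kif11, Kif22, Cenpe, Ndc80, Foxm1) and 3 without the second (Kif11, Kif22, Cenpe), with changes still below 0. With every probe set by itself, 69 of 75 were called in vector cells and 66 in R132C cells. For members given with culture values, 251 of 253 comparisons across settings kept their direction and call in vector cells, 2 (both Foxm1) lost the call and 0 reversed. For R132C against vector on uncoated plates the count of 19 moved to 9 with the mean of all probe sets of a gene, 11 without an intensity trend, 17 of 75 probe sets by themselves, and 0 with only the arrays compared. Leaving out 1 culture gave 0 to 37. The cause was not tested. For the difference of plate effects the count of 0 became 1 (Ccnb2) without the second uncoated vector culture, for a range of 0 to 1. In the 6 comparisons on collagen no gene of the 43 was called under any of the 72 setting and comparison pairs run. The labels do not say that equal replicate numbers share a batch or day, and deviations of same-numbered cultures correlated at -0.04 to 0.49 between groups (median 0.16), over 0.1 in 13 of 21 pairs and not in the others, so whether the numbers pair the cultures is not settled and the block was kept as an alternative. With a replicate block 29 were called for R132C against vector on uncoated plates, 43 and 42 for the plate effects and 0 for their difference.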

Other observations

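By Pearson's r with the mean of the mitotic genes over all 14 arrays, a measure that mainly follows the split between plates, the genes outside the lists most like them were Hells (r = 0.993), Pold2 (0.992), Spdl1 (0.992), Fanci (0.991) and Ss18 (0.991). Hells, a chromatin remodeller, changed by -1.33 log2 units (SE 0.16) on uncoated plates in vector cells and by -1.07 in R132C cells. Pold2, a subunit of DNA polymerase delta, changed by -1.10 (SE 0.10) and -0.90. Spdl1, which brings dynein to kinetochores, changed by -1.31 and -1.20, and Fanci, of the Fanconi repair pathway, by -1.19 and -0.86. Ss18, a subunit of BAF chromatin remodelling complexes, changed by -0.24 (SE 0.07) and -0.18. Of the 43 genes, Foxm1 (r = 0.894), Pttg1 (0.899) and Mybl2 (0.93) followed the mean of the others least.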
